A study of Rattus norvegicus with 24 samples.

Results

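Nucleotide excision repair was described here through 34 listed genes, of which 32 had an array probe set carrying exactly 1 gene symbol, among 14217 genes measured in this way; the probe set with the highest mean stood for a gene. Uvssa and Gtf2h2 were not measured with such a probe set. The RNA came from aged (18 months) and young (4 months) Brown Norway rats, an inbred strain with no allele, transgene or treatment named in the labels. From each of 12 rats, 6 aged and 6 young by the numbers in the titles, round spermatids and pachytene spermatocytes were enriched in a STAPUT density gradient at a labelled purity above 83%. The 24 Affymetrix arrays therefore formed 4 groups of 6, which were aged round spermatids, young round spermatids, aged pachytene spermatocytes and young pachytene spermatocytes. All levels below are log2 array signals, each compared only with the same probe set in other arrays.

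Nucleotide excision repair removes bulky, helix-distorting DNA lesions by cutting out a short stretch of the damaged strand and filling the gap. Lesions are found either anywhere in the genome, by Xpc and the UV-damage binding proteins, or where they stall RNA polymerase, by the Cockayne syndrome proteins Ercc6 and Ercc8. TFIIH then opens the helix, Xpa and the single-strand binding protein RPA hold the bubble, nucleases cut the strand on either side of the lesion, and replication factor C (RFC) loads the clamp for repair synthesis. Pachytene spermatocytes are in meiotic prophase, while round spermatids are haploid, past both meiotic divisions, and have not yet compacted their chromatin.

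In aged against young pachytene spermatocytes, 14 of the 32 genes rose and 6 fell at an adjusted p under 0.05 (limma, Benjamini-Hochberg over 31042 probe sets), while 25.5% of all 14217 genes rose and 19.0% fell (44.6% in either direction). The median difference was 0.14 over the repair genes and 0.050 over all genes. In aged against young round spermatids, 8 rose and 4 fell, beside 12.5% and 12.4% of all genes (24.9% in either direction). The median was 0.041 for the repair genes and -0.00076 for all genes. The larger shift was between the cell types. In round spermatids 23 of the 32 genes were lower than in pachytene spermatocytes and 5 were higher, whereas 39.1% of all genes were lower and 49.2% higher (88.3% in either direction), and the medians were -0.46 for the repair genes and 0.055 for all genes.

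The fractions were checked against cell markers. Round spermatid markers were higher in round spermatids for 8 of 8 measured genes and late spermatid markers for 17 of 17, while of 9 pachytene markers 6 were lower and 3 higher. Macrophage (13 of 14), peritubular (8 of 10) and spermatogonia markers (7 of 12) were also called higher there, with 0, 0 and 3 lower. Sertoli (13 of 15), Leydig (5 of 9) and endothelium and blood markers (5 of 8) were mostly lower, with 2, 1 and 2 higher. Over all genes 49.2% were higher and 39.1% lower. Low signals sat higher in round spermatid arrays, and for dim markers this and other cells cannot be told apart. Markers of other cells moved with age in the pachytene arrays. Of 15 Sertoli cell markers 13 fell and none rose, with a mean level of 9.15 to 9.51 in aged and 9.96 to 10.71 in young pachytene arrays, and of 17 late spermatid markers 13 fell and 1 rose, with a mean level of 12.69 to 13.12 in aged and 12.97 to 13.93 in young arrays. In round spermatid arrays 8 of the 15 Sertoli markers fell and none rose, with a mean level of 7.91 to 8.22 in aged and 8.27 to 8.76 in young arrays. Of 9 pachytene markers 4 rose there and 0 fell, with a mean level of 10.91 to 11.11 in aged and 10.56 to 10.93 in young arrays. Of 17 late spermatid markers 0 rose and 4 fell there, while 12.5% of all genes rose and 12.4% fell. The part of these cells in the repair gene differences was not tested, and in such fractions fewer cells of a type and less RNA per cell cannot be told apart.

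Young pachytene arrays also varied most. The median SD of a repair gene was 0.0761 in aged and 0.204 in young pachytene arrays, and 0.0643 in aged and 0.140 in young round spermatid arrays. Along the leading component of the pachytene arrays (73.9% of variance), young rats 1, 10 and 11 lay at -86.33, -47.06 and -44.02, the other young rats at -7.38 to 3.78 and the aged rats at 16.22 to 39.58. Young rat 1 had the lowest young value in all 14 genes that rose, and rats 1, 10 and 11 were the 3 lowest young rats in 12 of them. Without these 3 rats, 5 of the 14 kept the call and 9 lost it, while 6 of 6 that fell kept it. The 3 rats stood out in the same arrays as the lowest young values of most genes that rose. Leaving them out therefore shrank those rises by construction, with fewer young rats left to test. In the 6 pachytene falls, young rat 1 had the most extreme young value in 3 genes and young rat 10 in 3. Rats 1, 10 and 11 were the 3 most extreme young rats in 3 of these 6 falls. In round spermatid arrays the same 3 were the most extreme young rats in 3 of 8 rises and 0 of 4 falls. The split of 14 rises and 6 falls also depended on scaling, and was 18 and 5 after median centring, 7 and 8 after centring on hybridization controls and 3 and 13 on the deposited scale. Leaving out 1 rat changed the count of rises to 7 without young rat 10 and to 9 without aged rat 9, and the 6 falls stayed 6 in every such fit.

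**Figure D1:**
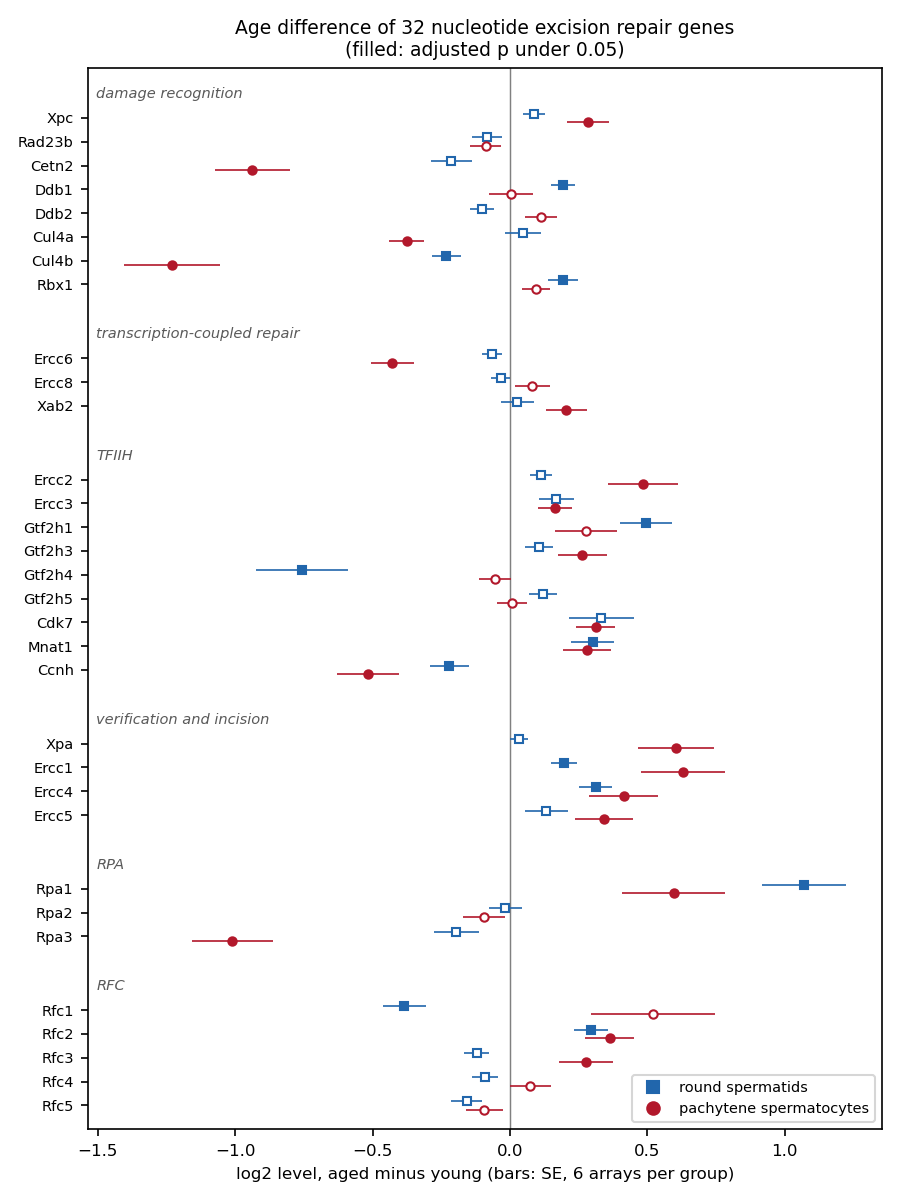
Difference in log2 level, aged minus young, for the 32 genes by role in round spermatids (squares) and pachytene spermatocytes (circles), with SE over 6 arrays per group; filled symbols passed an adjusted p of 0.05. The largest falls are Cul4b (-1.23) and Rpa3 (-1.01) in pachytene spermatocytes, the largest rise is Rpa1 (1.07) in round spermatids, and the pachytene values of Ddb1, Ddb2, Ercc3, Ercc5, Ercc8, Gtf2h3, Gtf2h5, Rfc3, Xab2 and Xpc, right of 0 here, lie left of it as deposited, those of Ddb2, Ercc8, Xab2 and Xpc also with hybridization controls, while among open symbols left of 0 those of Ddb2, Ercc6, Ercc8, Rad23b, Rfc3, Rfc4 and Rpa2 in round spermatids lie right of it under both scalings, those of Rfc5 and Rpa3 there with hybridization controls, and those of Rad23b in both cell types and Gtf2h4 in pachytene spermatocytes after median centring.

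Damage recognition held the largest difference between the cell types and the largest with age in pachytene spermatocytes. Ddb1 and Ddb2 bind UV lesions, and Ddb1 also links its partners to the CRL4 ubiquitin ligase, which is built on the cullin scaffolds Cul4a or Cul4b with the RING subunit Rbx1 and marks Ddb2, Xpc and histones at a lesion. Cul4a, Ddb1, Rbx1 and Cul4b were all lower in round spermatids, and Cul4b and Cul4a fell with age in pachytene spermatocytes. The 100 bases just outside the annotated starts of these 4 genes are given because the subunits were low together between the cell types while the paralogs Cul4a and Cul4b differ in base composition there. They come from RefSeq (build GRCr8), with the GC box GGGCGG and the motif CCAAT on either strand in capitals: Cul4a at chr16:83124504-83124603 on the minus strand, Cul4b at chrX:122192300-122192399 on the minus strand, Ddb1 at chr1:216677710-216677809 on the plus strand and Rbx1 at chr7:114870793-114870892 on the plus strand.
Cul4a: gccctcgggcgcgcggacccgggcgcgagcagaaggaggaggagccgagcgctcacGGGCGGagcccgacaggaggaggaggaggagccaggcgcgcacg
Cul4b: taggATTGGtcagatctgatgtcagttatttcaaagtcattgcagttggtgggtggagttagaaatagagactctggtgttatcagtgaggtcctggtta
Ddb1: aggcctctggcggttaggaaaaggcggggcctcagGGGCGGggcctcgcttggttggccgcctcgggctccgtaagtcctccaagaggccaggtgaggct
Rbx1: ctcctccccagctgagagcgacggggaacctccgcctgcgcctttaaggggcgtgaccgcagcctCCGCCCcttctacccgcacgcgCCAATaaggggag
G and C made up 78% of the Cul4a stretch, 42% of that of Cul4b and 69% of those of Ddb1 and Rbx1, and a GC box lay in those of Cul4a, Ddb1 and Rbx1. Over the whole promoter entries of the RefSeq table, which reach from upstream of the start to just inside the gene, GGGCGG was present in 17 of 29 repair genes with an entry (58.6%) and in 54.2% of all genes on the array with one, and CCAAT in 15 (51.7%) and in 35.1%. The ETS motif CCGGAAG was present in 7 of the 29 (24.1%), Xab2, Ercc3, Gtf2h3, Ercc5, Rfc3, Rfc4 and Rfc5, and in 12.9% of the array's genes. The MYB motif CAACNG was present in 8 (27.6%) and in 28.8% of the array's genes, while the CRE motif TGACGTCA, the E2F motif TTTCCCGC and an NRF1 palindrome were present in 0 of the 29 and in 2.64%, 1.55% and 1.47% of the array's genes. Both strands were searched. These matches are descriptions of sequence, not binding sites.

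Cul4a showed the largest difference between the cell types among the 32 genes. Its level was 7.96 to 8.56 (median 8.24) in round spermatids and 11.26 to 12.04 (median 11.58) in pachytene spermatocytes, on the scale shared by all 24 arrays. The cell types were far apart, and Cul4a was lower by 10.03-fold in round spermatids (log2 difference -3.33 ± 0.056 SE, adjusted p = 1.55e-22), by -3.08 in aged and -3.57 in young rats. In round spermatids its mean lay 1.09 above the brightest control for an absent bacterial transcript, so that the fold is measured against a dim level. With age, Cul4a was 11.34 to 11.55 (median 11.42) in aged and 11.71 to 12.03 (median 11.77) in young pachytene spermatocytes. These ranges did not overlap, and Cul4a fell by 0.38 ± 0.063 (SE, adjusted p = 0.00118), a call lost after median centring (-0.086). In round spermatids it was 8.002 to 8.25 (median 8.13) in aged and 7.87 to 8.33 (median 8.04) in young rats, with an age difference of 0.048 that did not pass (adjusted p = 0.692). As deposited, Cul4a was called higher in aged round spermatids (0.18).

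Cul4b, on chromosome X, had the smallest p of the repair genes for age in pachytene spermatocytes. Its level was 7.39 to 7.94 (median 7.73) in aged and 8.54 to 9.73 (median 8.77) in young pachytene spermatocytes, and every aged array was below every young array. Cul4b fell by 1.23 ± 0.18 (SE), which is 2.34-fold (adjusted p = 0.000571), and its other probe set fell by 0.80 (adjusted p = 0.00283). In round spermatids it was 7.36 to 7.60 (median 7.48) in aged and 7.61 to 7.88 (median 7.69) in young rats, again without overlap, and fell by 0.23 ± 0.053 (adjusted p = 0.00982). That smaller fall lost its call without young rats 1, 10 and 11 (adjusted p = 0.0899), and the other probe set gave -0.089 (adjusted p = 0.128). It was also lost as deposited (-0.094) and with hybridization controls (-0.055). Between the cell types Cul4b was lower in round spermatids by 0.89 (1.86-fold, adjusted p = 3.33e-10), where its mean was 0.62 above the brightest absent control.

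**Figure D2:**
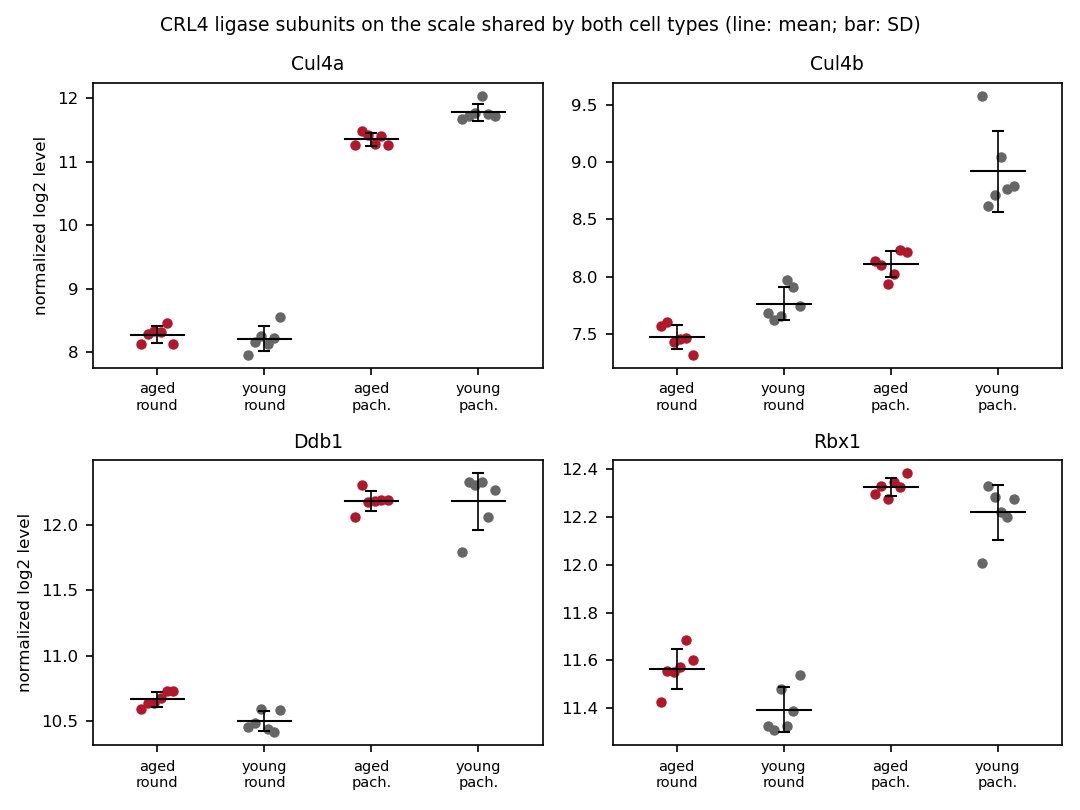
Normalized log2 levels of the CRL4 subunits Cul4a, Cul4b, Ddb1 and Rbx1 per array in aged and young round spermatids and aged and young pachytene spermatocytes (points: rats; line: mean; bar: SD, 6 arrays per group), on the scale shared by both cell types. Cul4a, Ddb1 and Rbx1 do not overlap between round spermatids and pachytene spermatocytes, and Cul4b is lowest in aged rats within each cell type.

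Ddb1 was 10.42 to 10.73 (median 10.59) in round spermatids and 11.79 to 12.33 (median 12.19) in pachytene spermatocytes, and was 3.03-fold lower in round spermatids without overlap (-1.60 ± 0.049, adjusted p = 1.04e-18). Its other probe sets did not both run the same way, since 1 was lower by 1.35 and 1 higher by 0.37. With age Ddb1 was 10.38 to 10.54 (median 10.45) in aged and 10.18 to 10.38 (median 10.24) in young round spermatids. The ranges overlapped slightly, and Ddb1 rose by 0.19 ± 0.043 (adjusted p = 0.00886), a rise not called with its other probe sets or without rats 1, 10 and 11 (adjusted p = 0.146). In pachytene spermatocytes Ddb1 differed with age by 0.0040 (adjusted p = 0.973) and was called higher after median centring (0.31), while 1 of its other probe sets rose by 0.33 (0.0123). Rbx1 was 11.31 to 11.69 (median 11.51) in round spermatids and 12.01 to 12.38 (median 12.29) in pachytene spermatocytes. It was lower in round spermatids without overlap, by 0.79 ± 0.035 (1.73-fold, adjusted p = 7e-16), and its other probe set was lower by 1.78. In aged round spermatids Rbx1 rose by 0.19 (adjusted p = 0.0254), and this call was lost in the fit without aged rat 8, 9 or 10 or young rat 1 or 11, without young rats 1, 10 and 11 (adjusted p = 0.269) and after median centring. The other probe set gave 0.038 there (adjusted p = 0.543) and fell in aged pachytene spermatocytes by 0.33 (0.0109), where the brighter one differed by 0.095 (0.165). After median centring the brighter one was called higher in aged pachytene spermatocytes (0.41).

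Cetn2, a centrin that binds Xpc and is also on chromosome X, was 6.64 to 7.02 (median 6.84) in aged and 7.34 to 8.29 (median 7.69) in young pachytene spermatocytes. The groups did not overlap, and Cetn2 fell by 0.94 ± 0.14 (1.92-fold, adjusted p = 0.000646). In round spermatids its age difference was -0.21 (adjusted p = 0.0675), and between the cell types it differed by 0.044 (adjusted p = 0.536), and was called lower in round spermatids with hybridization controls (-0.19). Xpc, the sensor of distorted helices, rose by 0.28 in aged pachytene spermatocytes (adjusted p = 0.0130), but was -0.16 on the deposited scale and -0.038 after centring on hybridization controls. It was lower in round spermatids by 0.46. Rad23b, which stabilises Xpc, and Ddb2 did not pass for age in either cell type. The other probe set of Ddb2 rose in aged pachytene spermatocytes by 0.32 (adjusted p = 0.0196), Ddb2 was called higher there with means over probe sets (0.22), and Rad23b was called lower there as deposited (-0.23). Both were called higher in round spermatids, by 0.23 and 0.22, but Rad23b was -0.043 after median centring, -0.10 as deposited and -0.16 after centring on hybridization controls, Ddb2 lost the call as deposited (0.077) and with hybridization controls (0.022), and the other probe set of Ddb2 was lower by 0.26.

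Among the transcription-coupled repair genes, Ercc6, a chromatin remodeller that acts on stalled RNA polymerase, fell with age in pachytene spermatocytes and was lower in round spermatids than in pachytene spermatocytes. Its level was 8.28 to 8.55 (median 8.43) in aged and 8.65 to 9.09 (median 8.87) in young pachytene spermatocytes, without overlap, and it fell by 0.43 ± 0.079 (1.34-fold, adjusted p = 0.00204). In round spermatids its age difference was -0.066 and did not pass (adjusted p = 0.258). Between the cell types it was 7.89 to 8.16 (median 8.04) in round spermatids and 8.45 to 9.02 (median 8.66) in pachytene spermatocytes, lower in round spermatids by 0.66 ± 0.037 (adjusted p = 4.97e-14). Ercc8, the receptor subunit that brings CRL4 to the polymerase, did not pass for age in pachytene (0.082) or round spermatid arrays (-0.033). It was 7.47 to 7.74 (median 7.58) in round spermatids and 7.96 to 8.16 (median 8.06) in pachytene spermatocytes, lower in round spermatids by 0.47 ± 0.026 without overlap (adjusted p = 5.29e-14). The round spermatid means of Ercc6 and Ercc8 lay 0.94 and 0.59 above the brightest absent control. Xab2, which binds Xpa and also takes part in splicing, rose in aged pachytene spermatocytes by 0.20 (adjusted p = 0.0456), a call lost in 9 of the 12 fits without 1 rat (those without any rat but aged rat 10 and young rats 2 and 3) and turned to -0.19 as deposited and -0.074 with hybridization controls. It was higher in round spermatids by 0.40, and -0.094 after median centring, -0.15 as deposited and -0.21 with hybridization controls.

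TFIIH joins a core, with the helicase Ercc2, the translocase Ercc3 and the subunits Gtf2h1, Gtf2h3, Gtf2h4 and Gtf2h5, to a kinase of Cdk7, cyclin H (Ccnh) and the assembly factor Mnat1. In aged pachytene spermatocytes 5 of its 9 measured genes rose and 1 fell, in aged round spermatids 2 rose and 2 fell, and 7 of 9 were lower in round spermatids than in pachytene spermatocytes with none higher. Over all genes the shares were 25.5% and 19.0% for rises and falls in pachytene spermatocytes, 12.5% and 12.4% in round spermatids, and 39.1% lower and 49.2% higher between the cell types. The kinase module was split with age. Ccnh was 9.17 to 9.62 (median 9.32) in aged and 9.48 to 10.18 (median 9.91) in young pachytene spermatocytes, overlapping in a narrow range, and fell by 0.52 ± 0.11 (1.43-fold, adjusted p = 0.00442). Cdk7 was 10.94 to 11.07 (median 11.001) in aged and 10.48 to 10.84 (median 10.71) in young pachytene spermatocytes. Without overlap, it rose by 0.31 ± 0.072 (adjusted p = 0.00584), a call lost on the deposited scale (0.16). Mnat1 rose in aged pachytene spermatocytes by 0.28 (adjusted p = 0.0254), a call lost without aged rat 10 or young rat 10, as deposited (0.11), with hybridization controls (0.22) and without young rats 1, 10 and 11 (0.13). In aged round spermatids it rose by 0.30 (adjusted p = 0.0186), a call lost after median centring (adjusted p = 0.0621) and without the 3 rats (0.106). In round spermatids Ccnh fell by 0.22 (adjusted p = 0.0468), a call lost in 9 of 12 fits without 1 rat (all but those without young rats 1, 2 and 3), after median centring (-0.18), as deposited (-0.041), with hybridization controls (-0.0014), with array weights and without young rats 1, 10 and 11. Cdk7 differed there by 0.33 (adjusted p = 0.0692) and was called higher as deposited (0.58), with hybridization controls (0.62) and with array weights (0.27).

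In the core, Gtf2h1 was 10.92 to 11.26 (median 11.02) in aged and 10.17 to 10.84 (median 10.62) in young round spermatids. The groups did not overlap, and Gtf2h1 rose by 0.50 ± 0.096 (1.41-fold, adjusted p = 0.00477), while its other probe set gave 0.33 (adjusted p = 0.0558). In pachytene spermatocytes Gtf2h1 differed with age by 0.28 and did not pass, but was called higher after median centring (0.59) and with hybridization controls (0.33). Gtf2h4, which anchors the translocase, was 8.95 to 9.45 (median 9.31) in aged and 9.53 to 10.74 (median 9.97) in young round spermatids. Every aged array was below every young array, and Gtf2h4 fell by 0.76 ± 0.17 (1.69-fold, adjusted p = 0.00867), while in pachytene spermatocytes it differed by -0.054 (adjusted p = 0.499). Ercc2 rose in aged pachytene spermatocytes by 0.48 (adjusted p = 0.0113), Gtf2h3 by 0.26 (0.0327) and Ercc3 by 0.16 (0.0496). Ercc2 lost the call as deposited (0.17) and with hybridization controls (0.29). Gtf2h3 and Ercc3 turned to -0.042 and -0.047 on the deposited scale, and lost the call in 7 and 10 of the 12 fits without 1 rat, young rats 10 and 11 and aged rats 3, 5, 8, 9 and 10 among them for both. Both also lost it with hybridization controls (0.077 and 0.071) and without young rats 1, 10 and 11 (0.12 and 0.10). Ercc3 lost it with array weights and with eBayes robust with a trend as well.

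Between the cell types, Gtf2h3 was 8.08 to 8.52 (median 8.30) in round spermatids and 8.86 to 9.49 (median 9.34) in pachytene spermatocytes, lower in round spermatids by 0.99 ± 0.050 (1.99-fold, adjusted p = 9.78e-15). Gtf2h5, the smallest core subunit, was 11.67 to 12.004 (median 11.88) in round spermatids and 12.21 to 12.52 (median 12.43) in pachytene spermatocytes, lower by 0.55 ± 0.035 in round spermatids (adjusted p = 5.68e-13). Neither gene overlapped between the cell types. With age Gtf2h5 differed by 0.0081 in pachytene spermatocytes, where its other probe set fell by 0.37 (adjusted p = 0.0185). Gtf2h5 was called higher in aged pachytene spermatocytes after median centring (0.33) and lower with means over probe sets (-0.18). Gtf2h1 was lower by 1.04 with the brighter probe set and differed by 0.033 with the other (adjusted p = 0.694). Ercc2, Ccnh, Ercc3 and Mnat1 were lower by 0.77, 0.65, 0.45 and 0.33, and Cdk7 (-0.065) and Gtf2h4 (-0.063) did not pass. Both were called lower in round spermatids under every other scaling, Cdk7 with -0.42 after median centring, -0.48 as deposited and -0.53 with hybridization controls, and Gtf2h4 with -0.57, -0.63 and -0.69 in the same order. In aged rats alone Gtf2h4 was lower by 0.39 (adjusted p = 0.00744), and in young rats it differed by 0.26 (0.0594).

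**Figure D3:**
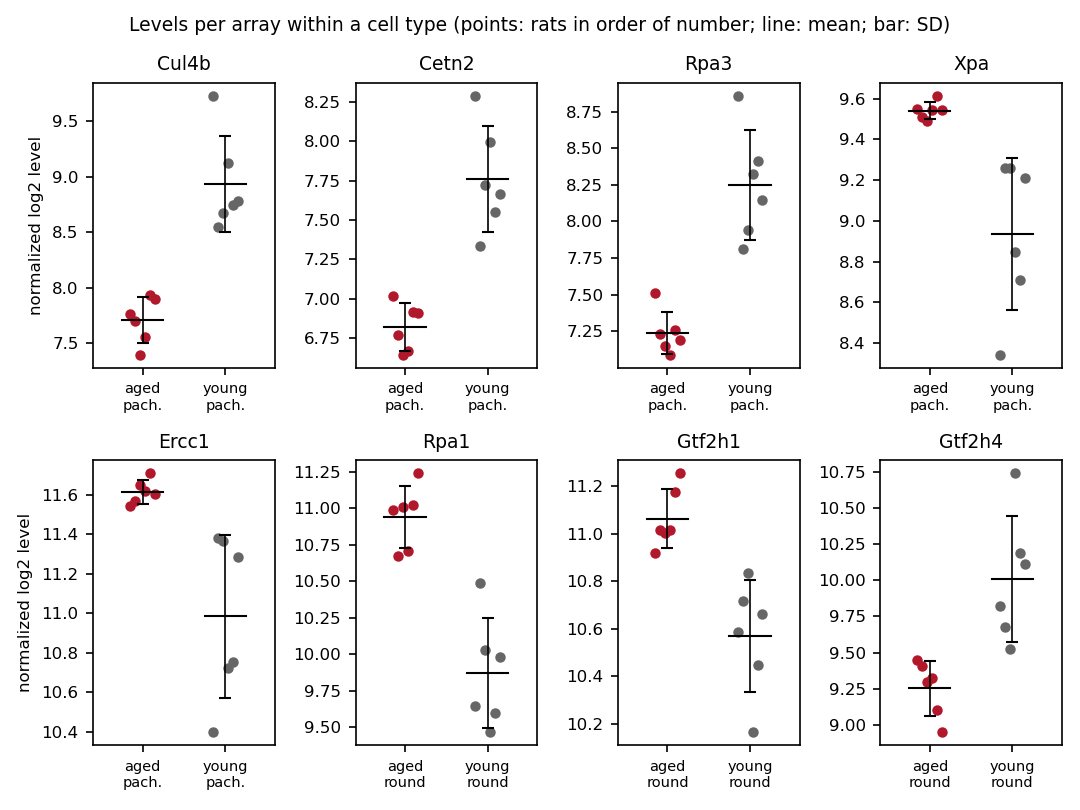
Normalized log2 levels per array of Cul4b, Cetn2, Rpa3, Xpa and Ercc1 in aged and young pachytene spermatocytes and of Rpa1, Gtf2h1 and Gtf2h4 in aged and young round spermatids (points: rats in order of number; line: mean; bar: SD, 6 arrays per group). Aged and young arrays do not overlap in any of the 8 panels, and the young arrays spread more than the aged ones, as in Xpa with 9.49 to 9.61 aged and 8.34 to 9.26 young. The panels were picked from genes with a small p in these arrays, Ercc1 after its values were seen, so the lack of overlap is no separate test. Of all 32 genes, 14 did not overlap in pachytene and 4 in round spermatid arrays, and the share over all genes was not counted.

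All 4 genes of lesion verification and incision passed as higher in aged pachytene spermatocytes, Xpa and Ercc1 under every alternative and the nucleases Ercc4 and Ercc5 not. Over all genes 25.5% rose and 19.0% fell there. Xpa, which checks the lesion and positions the nucleases, was 9.49 to 9.61 (median 9.54) in aged and 8.34 to 9.26 (median 9.03) in young pachytene spermatocytes. The groups did not overlap, and Xpa rose by 0.60 ± 0.14 (1.52-fold, adjusted p = 0.00582). Ercc1, the partner of the nuclease Ercc4, was 11.54 to 11.71 (median 11.61) in aged and 10.40 to 11.38 (median 11.02) in young pachytene spermatocytes and rose by 0.63 ± 0.15 (1.55-fold, adjusted p = 0.00768), also without overlap. Ercc4 rose by 0.41 (adjusted p = 0.0219) and Ercc5, the nuclease that cuts on the other side of the lesion, by 0.34 (0.0217). The other probe set of Ercc4 gave 0.18 (adjusted p = 0.0684). Xpa and Ercc1 kept the call in every one of 21 alternative fits, while Ercc4 lost it as deposited (0.24) and without young rat 10 (adjusted p = 0.0518), both Ercc4 and Ercc5 lost it without young rats 1, 10 and 11 (0.15 and 0.17), and Ercc5 lost it after median centring (0.30) and with hybridization controls (0.040) and was -0.078 as deposited.

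In round spermatids Ercc4 was 9.93 to 10.12 (median 9.99) in aged and 9.54 to 9.93 (median 9.68) in young rats. The ranges met at their edges, and Ercc4 rose by 0.31 ± 0.060 (1.24-fold, adjusted p = 0.00466), while its other probe set gave -0.0023. That call was lost without young rats 1, 10 and 11 (0.26, adjusted p = 0.0550). Ercc1 rose by 0.20 ± 0.048 (adjusted p = 0.0129), and Ercc5 (0.13) and Xpa (0.034) did not pass. All 4 genes were lower in round spermatids than in pachytene spermatocytes, Ercc1 by 0.76, Ercc5 by 0.54, Xpa by 0.36 and Ercc4 by 0.31. Over all genes 39.1% were lower and 49.2% higher. For Xpa the difference was -0.58 in aged and -0.13 in young rats, and the other probe set of Ercc4 was higher in round spermatids by 0.13.

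The 3 subunits of RPA, which coats the exposed strand, differed with age in different ways. Rpa1, the large subunit that holds most of the DNA contacts, was 10.67 to 11.24 (median 10.997) in aged and 9.47 to 10.49 (median 9.82) in young round spermatids. The groups did not overlap, and Rpa1 rose by 1.07 ± 0.15 (2.10-fold, adjusted p = 0.00179), the smallest p of the repair genes in this comparison. In pachytene spermatocytes Rpa1 rose by 0.60 ± 0.19 (adjusted p = 0.0245), with overlap, and lost the call without aged rat 9, without young rat 10 and without young rats 1, 10 and 11 (0.17). Rpa3, the small subunit, was 7.09 to 7.51 (median 7.21) in aged and 7.81 to 8.86 (median 8.24) in young pachytene spermatocytes, and no array of the groups overlapped. It fell by 1.01 ± 0.15 (2.01-fold, adjusted p = 0.000646), and in round spermatids it differed by -0.20 (adjusted p = 0.124; 0.00400 without young rat 10). Rpa2, the middle subunit, did not pass in either (-0.094 in pachytene and -0.016 in round spermatid arrays), but was called lower in aged pachytene spermatocytes as deposited (-0.48) and with hybridization controls (-0.36).

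Between the cell types, Rpa3 was higher in round spermatids by 0.78 ± 0.070 (1.72-fold, adjusted p = 3.26e-10). It was the only repair gene whose higher call in round spermatids held in all 25 alternative fits. Rpa1 and Rpa2 were lower there, by 0.83 and 0.43.

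Of the 5 RFC subunits, which together open and load the sliding clamp, Rfc2 rose with age in both cell types. It rose by 0.36 ± 0.089 in aged pachytene spermatocytes (adjusted p = 0.00812), a call lost as deposited (0.18). In round spermatids it was 9.67 to 9.81 (median 9.77) in aged and 9.29 to 9.70 (median 9.45) in young rats, overlapping at 1 edge, and rose by 0.30 ± 0.062 (1.23-fold, adjusted p = 0.00656). This round spermatid call was lost without young rats 1, 10 and 11 (0.20, adjusted p = 0.0642). Rfc1, the large subunit, was 9.95 to 10.11 (median 10.04) in aged and 10.10 to 10.71 (median 10.43) in young round spermatids. The aged arrays lay close together and overlapped the lower end of the young range, and Rfc1 fell by 0.38 ± 0.078 (1.31-fold, adjusted p = 0.00587), a call lost as deposited (-0.12) and with hybridization controls (-0.081). Of its 2 other probe sets 1 fell there by 0.23 and 1 gave 0.14 (adjusted p = 0.0707). In pachytene spermatocytes Rfc1 differed by 0.52 (adjusted p = 0.0834; it passed without young rat 2), and its 2 other probe sets rose by 0.59 and 0.55. Rfc3 rose in aged pachytene spermatocytes by 0.28 (adjusted p = 0.0413), lost the call in 9 of 12 fits without 1 rat (all but those without young rats 1, 2 and 3) and was -0.032 on the deposited scale. Rfc4 did not pass for age in either cell type, and was called higher in aged pachytene spermatocytes after median centring (0.42). Rfc5 did not pass in pachytene (-0.093) or round spermatid arrays (-0.16), but its other probe set fell in aged pachytene spermatocytes by 0.36 (adjusted p = 0.00763). Rfc5 was also called lower there with means over probe sets (-0.23), as deposited (-0.53) and with hybridization controls (-0.41).

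Rfc4 was 12.46 to 12.72 (median 12.53) in round spermatids and 12.95 to 13.40 (median 13.35) in pachytene spermatocytes. It was lower in round spermatids without overlap, by 0.75 ± 0.042 (1.69-fold, adjusted p = 5.25e-14). Rfc3 and Rfc2 were lower by 0.65 and 0.42, and Rfc1 did not pass (0.15; it passed without young rat 2). Rfc1 was -0.28 in aged rats (adjusted p = 0.150) and higher in round spermatids by 0.58 in young rats (0.00477), and over both ages it was -0.28 after median centring, -0.34 as deposited and -0.39 with hybridization controls. Rfc5 was higher by 0.24, and -0.12 after median centring, -0.18 as deposited and -0.23 with hybridization controls.

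**Figure D4:**
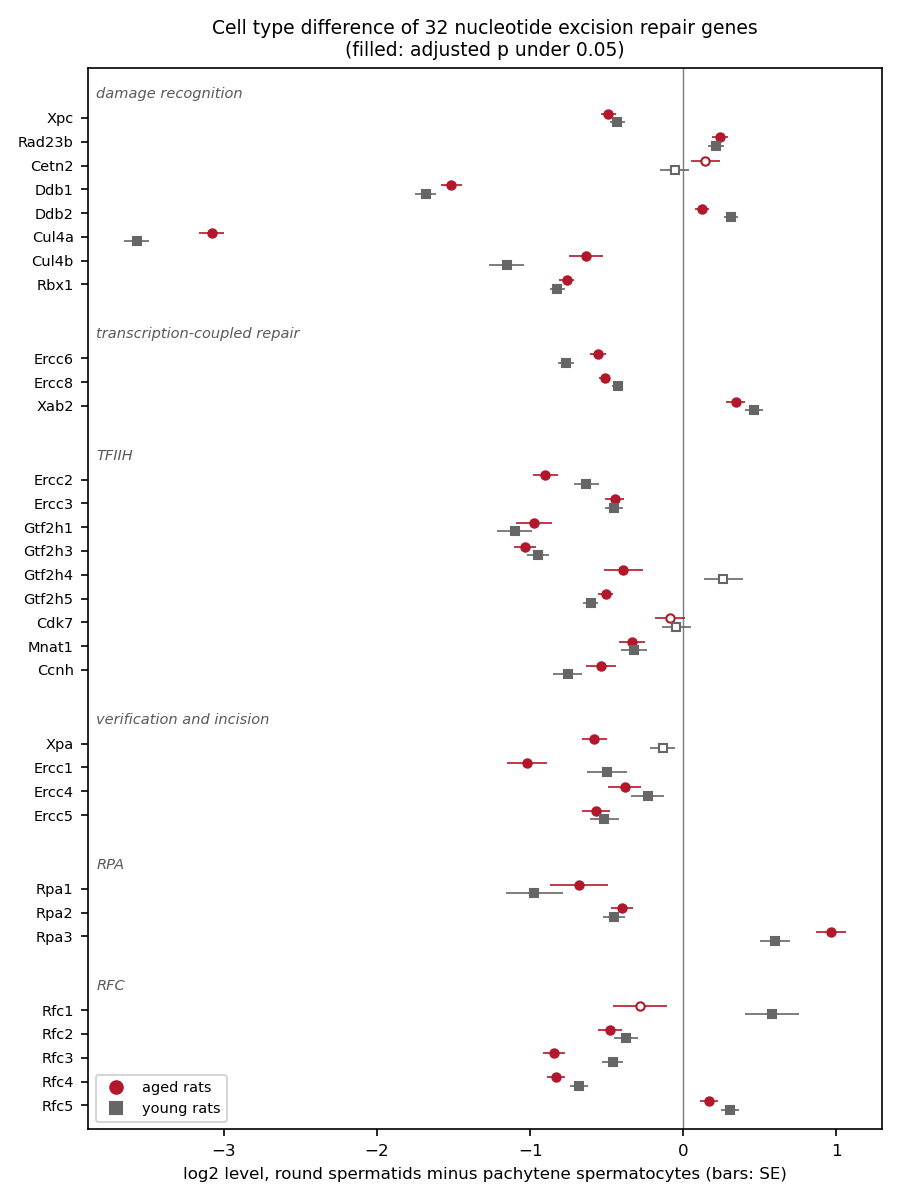
Difference in log2 level, round spermatids minus pachytene spermatocytes, for the 32 genes by role in aged (circles) and young rats (squares), with SE; filled symbols passed an adjusted p of 0.05. Cul4a lies farthest left in both ages (-3.08 in aged and -3.57 in young rats) and Rpa3 farthest right (0.97 and 0.60), while the values of Cetn2, Rad23b, Rfc1, Rfc5 and Xab2, right of 0 when averaged over both ages, lie left of it after median centring, as deposited and with centring on hybridization controls.

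Within 1 age the cell type pattern was similar in count. In aged rats 24 of the 32 genes were lower in round spermatids and 5 higher, beside 37.1% and 45.2% of all genes (82.3% in either direction), and in young rats 22 were lower and 6 higher, beside 36.0% and 47.9% (83.9% in either direction). Of the 28 calls over both ages, 22 held in all alternatives, 21 of them lower in round spermatids. In the separate groups, 32 of 32 genes averaged over 1 log2 unit above the brightest absent control in pachytene arrays, but 26 did in aged and 25 in young round spermatid arrays. In the deposited values low signals sat higher in round spermatid arrays, and for dim genes this and the cell type cannot be told apart.

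The age difference itself differed between the cell types for 6 of the 32 genes, 2 with a higher and 4 with a lower value in round spermatids, beside 7.36% and 8.81% of all genes (16.2% in either direction). For Cul4a the age difference on the shared scale was 0.065 in round spermatids and -0.43 in pachytene spermatocytes, a difference of 0.49 ± 0.11 (adjusted p = 0.00692). For Xpa it was 0.041 in round spermatids and 0.49 in pachytene spermatocytes (difference -0.45 ± 0.11, adjusted p = 0.0130). The pachytene fall of Cul4a and the pachytene rise of Xpa had no counterpart of that size in round spermatids. There the means of Cul4a and Xpa lay 1.09 and 1.54 above the brightest absent control, against 7.09 and 4.75 in pachytene arrays. An age difference made smaller by a dim level and one that differs by cell type cannot be told apart. Rfc3 had -0.15 in round spermatids and 0.24 in pachytene spermatocytes (difference -0.38 ± 0.10, adjusted p = 0.0146), and Gtf2h4 had -0.71 and -0.054 in the same order (difference -0.65 ± 0.18, adjusted p = 0.0187). Rfc1 and Cul4b differed by -0.86 (adjusted p = 0.0261) and 0.52 (0.0344), and all 3 probe sets of Rfc1 passed in the same direction. None of the 6 calls held in all 23 alternatives: Cul4a, Gtf2h4, Rfc1 and Rfc3 lost the call without young rats 1, 10 and 11, and the split of 2 and 4 was 5 and 6 after median centring, 15 and 0 with hybridization controls and 25 and 0 on the deposited scale. Cul4b lost it in the fit without aged rat 2, 3, 5, 8 or 9, each leaving 1 gene with a higher value, and Rfc1 in the fit without aged rat 3, 5, 8, 9 or 10 or young rat 1 or 10. Gtf2h4, Xpa and Rfc1 lost it as deposited and with hybridization controls, and Rfc3 lost it with hybridization controls (-0.0077) and turned to 0.063 as deposited. Rfc1 also lost it with array weights and Cul4b without the offset. Of genes that did not pass, Ddb1 did without young rat 1, Ddb2 without aged rat 9 or young rat 1 or 3, Ercc1 without young rat 2, 3 or 13 and Ercc6 without young rat 3 or 13.

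Set side by side, 5 genes rose with age in both cell types (Mnat1, Ercc1, Ercc4, Rpa1 and Rfc2, of which Ercc1 kept both calls in all alternatives), 2 fell in both (Cul4b and Ccnh, whose round spermatid calls were lost under 3 and 14 of 21 alternatives), none was called in opposite directions and 7 passed in neither (Rad23b, Ddb2, Ercc8, Gtf2h5, Rpa2, Rfc4 and Rfc5). Over all genes, such joint calls and calls held in every alternative were not counted, so neither can be called particular to repair genes. By the numbers in the titles, the arrays of the 2 cell types came from the same rats. Calls that held in all 21 alternatives of their comparison numbered 7 in pachytene spermatocytes (Xpa and Ercc1 higher, Cul4b, Cetn2, Rpa3, Ercc6 and Ccnh lower) and 4 in round spermatids (Rpa1, Gtf2h1 and Ercc1 higher, Gtf2h4 lower). The split of 8 rises and 4 falls in round spermatids was 6 and 3 after median centring, 17 and 1 with hybridization controls, 19 and 1 as deposited, and 3 and 2 without young rats 1, 10 and 11. Leaving out 1 rat let genes pass in round spermatids that otherwise did not, namely Cdk7, Cetn2, Ercc3, Gtf2h5 and Rfc3 without young rat 3, Cetn2, Ercc2 and Rfc5 without young rat 2, and Ercc2, Ercc3 and Rpa3 without young rat 10. In pachytene spermatocytes Gtf2h1 passed without young rat 2 or 3 and Rfc1 without young rat 2.

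Other genes of the pathway, 26 measured of 28 listed, comprised resynthesis and ligation enzymes and regulators of recognition. In aged pachytene spermatocytes 9 of the 26 rose and 6 fell, beside 25.5% and 19.0% of all genes, among them Slx4, a scaffold for the Ercc1 and Ercc4 nuclease, which rose by 0.60 (adjusted p = 0.00204), Pole2, a subunit of DNA polymerase epsilon, which rose by 0.61 (0.00431), Hmgn1, a nucleosome-binding protein, which fell by 1.12 (0.00209), and Usp7, a deubiquitinase, which fell by 0.90 (0.00671). In aged round spermatids 7 rose and 4 fell, beside 12.5% and 12.4% of all genes. Pold3, a subunit of polymerase delta, fell by 0.27 (adjusted p = 0.00178) and the translesion polymerase Polk by 0.37 (0.00238), while Gps1, a COP9 signalosome subunit, rose by 0.63 (0.00354) and Elof1, an elongation factor of transcription-coupled repair, by 0.16 (0.0116). Between the cell types 8 were higher in round spermatids and 15 lower, beside 49.2% and 39.1% of all genes. Polk was higher there by 2.32 (adjusted p = 9.84e-16) and the ligation scaffold Xrcc1 by 1.40 (2.07e-15), and Pole4 was lower by 1.74 (4.54e-15) and the damage sensor Parp1 by 1.07 (7.94e-14). The age difference differed between the cell types for 6 of the 26, beside 16.2% of all genes, with 1.13 for Hmgn1, 0.95 for Usp7, -0.25 for Pold1 and 0.21 for Pcna, the clamp that RFC loads (adjusted p = 0.00632, 0.0175, 0.0183 and 0.0187). All calls of these 26 genes come from the main fits alone. They were not checked under other scalings, with rats left out or with other probe sets.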

How the data were processed

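RNA of round spermatid and pachytene spermatocyte fractions was hybridised to 24 arrays, 6 per group. The values deposited by the authors are log2 signals per probe set, and no source used here names the summarisation program. Per the labels' protocols, cRNA was made from 3 ug of total RNA. Genes were named through the platform table: of 31042 probe sets tested (31099 less 57 controls), 20826 had 1 symbol, 436 several and 9780 none.

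Age was tested within each cell type after quantile normalization. For the cell type and the difference of the age effect, an offset of 90.3 was added to the linear pachytene values, chosen so that 45 spike controls matched (mean difference 0.61 ± 0.77 before and -0.03 ± 0.17 after, SD over controls), since an absent control averaged 6.83 in round spermatid and 4.28 in pachytene arrays; the 24 arrays were then quantile normalized. Tests were limma 3.58.1 (R 4.3.3, with lmFit and eBayes) with Benjamini-Hochberg adjustment and a threshold of 0.05, and were tested on simulated data. The simulated noise was independent, with the same SD in all groups for a probe set, and was fitted without normalization. The simulation therefore could not test the wider spread of the young arrays or the choice of scaling. Values were given in full for up to 8 called genes with the smallest p in each comparison (4 for the difference of age effects) and for the gene with the smallest p of a role without any of these, with up to 4 other pathway genes per comparison; the levels of Ercc1 were added after its values were seen. The members and lists were chosen with earlier results of these data known. Figures were drawn with matplotlib 3.10.9.

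The same number and age in the titles was taken to mark 1 rat, so both fractions were read as paired, which the labels do not state. After removing group means the paired fractions correlated at -0.08 to 0.38, best with the own partner for 6 of 12 rats. The main fits held no term for the rat. Alternatives were other scalings, no offset, no probe sets from the 40% dimmest, array weights, eBayes robust with a trend, means over probe sets, replicate blocks, each rat left out, young rats 1, 10 and 11 left out, and each age alone.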

Additional observations from a re-analysis of the deposited data

Results flagged for a closer look

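Within groups of 6 arrays, 8 of 128 gene and group combinations (6.25%) held an array whose gap to its neighbour took up most of the group's range; chance gives about 1 in 20. In young pachytene spermatocytes rat 1 stood apart with a high Rad23b (11.22) and a low Gtf2h3 (8.88) and Mnat1 (9.94), and rat 10 with a high Cul4a (12.03). Rat 10 of the young group also had low round spermatid values of Xab2 (8.58) and Ercc3 (8.80). Rat 10 of the aged group had a low Xab2 in pachytene spermatocytes (8.49) and a low Rfc3 in round spermatids (8.19).

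A test of the difference between the cell types set apart the age effects of 6 genes, as the age difference in round spermatids minus that in pachytene spermatocytes: Cul4a (0.49), Cul4b (0.52), Gtf2h4 (-0.65), Xpa (-0.45), Rfc1 (-0.86) and Rfc3 (-0.38).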

How the results depend on the processing

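Scaling set most of the changes in sign. Genes called in either fit turned its sign for age in pachytene spermatocytes as deposited (Ddb2 -0.28, Ercc3 -0.047, Ercc5 -0.078, Ercc8 -0.34, Gtf2h3 -0.042, Rfc3 -0.032, Xab2 -0.19 and Xpc -0.16), with hybridization controls (Xab2 -0.074 and Xpc -0.038) and with means over probe sets (Gtf2h5 -0.18); for age in round spermatids as deposited (Rad23b 0.17); for the cell type with hybridization controls (Cetn2 -0.19, Rad23b -0.16, Rfc1 -0.39, Rfc5 -0.23 and Xab2 -0.21), as deposited (Rad23b -0.10, Rfc1 -0.34, Rfc5 -0.18 and Xab2 -0.15), after median centring (Rad23b -0.043, Rfc1 -0.28, Rfc5 -0.12 and Xab2 -0.094), with means over probe sets (Ddb2 -0.021) and without young rats 1, 10 and 11 (Rfc1 -0.14); and for the difference of age effects as deposited (Cdk7 0.43, Ddb2 0.20, Ercc4 0.34, Ercc5 0.33, Ercc8 0.33, Gtf2h3 0.28, Mnat1 0.44, Rfc2 0.36, Rfc3 0.063, Rfc5 0.39, Xab2 0.36 and Xpc 0.34) and with hybridization controls (Mnat1 0.37 and Xab2 0.29). The scalings moved the median of all genes with age by 0.050 (quantile), 0.13 (median centring), -0.25 (deposited) and -0.13 (hybridization controls) in pachytene arrays and by -0.00076, 0.011, 0.15 and 0.18 in round spermatid arrays, in the same order. Counts that moved by over 1.5 times were, for pachytene rises (14), 3 as deposited, 7 with hybridization controls and 5 without young rats 1, 10 and 11, and for falls (6), 13 as deposited; for round spermatid rises (8), 19, 17 and 3, and for falls (4), 1, 1 and 2; for genes higher in round spermatids (5), 2 after median centring, 1 as deposited and 1 with hybridization controls; for the difference, higher (2), 5 after median centring, 25 as deposited, 15 with hybridization controls, 5 with array weights and 4 with means over probe sets, and lower (4), 0 as deposited, 0 with hybridization controls and 2 without the 3 rats. Leaving out 1 rat gave 7 to 16 rises and 6 to 6 falls in pachytene spermatocytes, 7 to 11 and 3 to 6 in round spermatids, 5 to 6 higher and 23 to 23 lower between cell types, and 1 to 3 higher and 3 to 6 lower for the difference. With the number as a replicate block, 12 genes rose and 6 fell in pachytene spermatocytes, Ercc3 (adjusted p = 0.0542) and Xab2 (0.0504) losing the call, and 8 and 4 in round spermatids; with the rat as a random replicate block, the paired fit gave 5 higher and 23 lower between cell types and 3 higher and 5 lower for the difference, adding Ddb2 (adjusted p = 0.0427) and Ercc6 (0.0479), and with a fixed block no call changed. The causes of these changes were not tested. The 6 rats per age and the background of the round spermatid arrays limit small changes and dim genes.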
